A study of Mus musculus with 4 samples.

Results

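The angiotensin and endothelin systems are peptide systems that make smooth muscle contract, and their genes were examined in the adult mouse ureter. The list holds 10 genes, chosen by symbol: Agt, Ace, Agtr1a, Agtr2 and Ren1 for angiotensin, and Edn1, Edn3, Ednra, Ednrb and Ece1 for endothelin. A gene was measured where a probe set, the group of short probes that reads a transcript, was annotated with that symbol alone. This gave 16 of the 45037 probe sets tested and 8 of the 10 genes. Ren1 and Ednra had no such probe set and are not analysed here. The 4 samples form a single group of male FVB/N mice at adulthood (Theiler stage 28), offspring of FVB/N females and SMGA/EGFP transgenic males, in which EGFP reports smooth muscle gamma actin (Actg2). Ureter was microdissected between kidney and bladder by its EGFP signal, was not pooled, and its RNA, after 2 rounds of amplification, was read on 1 Affymetrix mouse array per sample. Every sample carried the reporter and none was treated, so there is no contrast between groups. The questions were which of these genes the ureter expressed above background and how far the samples differed. The labels do not say that the samples came from separate animals, so p-values measure only the spread between these 4 samples, which are called replicates 1 to 4 in an order without meaning.

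In the angiotensin system the protease renin cuts angiotensinogen, the product of Agt, and angiotensin-converting enzyme (Ace) trims the product to angiotensin II. That peptide acts through the type 1 receptor (Agtr1a), which couples to G proteins that raise calcium and contract muscle, and through the type 2 receptor (Agtr2), which is known from the developing urinary tract. In the endothelin system endothelin-converting enzyme (Ece1) cuts the precursors encoded by Edn1 and Edn3. The mature peptides bind the A receptor of muscle (Ednra) and the B receptor (Ednrb), which vessel lining, glia and pigment cells also carry.

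Sequences are given at the start sites of 3 genes with a probe set above background. Ace and Ece1 are shown because each has several starts in RefSeq and its probe sets on the array did not behave alike. The probe sets of Edn3 and Ednrb, which have 1 start each there, did not behave alike either. Edn1 is shown because it was the endothelin ligand of the list that was above background. Each sequence is a window of 300 bases of the RefSeq table of GRCm38.p6, on the strand of the gene. It holds 250 bases before and 50 after the start. Capitals mark matches on either strand to 5 motifs, which are TATAAA for the TATA box, GGGCGG for the GC box, TGANTCA for the AP-1 site, AGATAA for the GATA site and CCGGAA for the ETS site. GGGCGG copies may overlap one another.
Ace, upstream start, chr11:105967698-105967997, plus strand: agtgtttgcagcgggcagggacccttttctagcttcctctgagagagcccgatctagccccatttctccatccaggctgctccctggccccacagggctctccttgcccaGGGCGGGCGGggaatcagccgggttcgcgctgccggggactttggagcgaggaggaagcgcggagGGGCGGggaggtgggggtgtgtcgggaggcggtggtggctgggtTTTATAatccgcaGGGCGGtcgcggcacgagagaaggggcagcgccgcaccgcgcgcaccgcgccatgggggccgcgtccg
Ace, downstream start, chr11:105974939-105975238, plus strand: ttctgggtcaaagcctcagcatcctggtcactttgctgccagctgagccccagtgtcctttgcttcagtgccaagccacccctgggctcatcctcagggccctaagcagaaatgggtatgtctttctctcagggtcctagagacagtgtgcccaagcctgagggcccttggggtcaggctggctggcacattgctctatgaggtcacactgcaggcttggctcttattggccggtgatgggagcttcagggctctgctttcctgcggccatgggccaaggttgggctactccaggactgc
Ece1, most upstream start, chr4:137861987-137862286, plus strand: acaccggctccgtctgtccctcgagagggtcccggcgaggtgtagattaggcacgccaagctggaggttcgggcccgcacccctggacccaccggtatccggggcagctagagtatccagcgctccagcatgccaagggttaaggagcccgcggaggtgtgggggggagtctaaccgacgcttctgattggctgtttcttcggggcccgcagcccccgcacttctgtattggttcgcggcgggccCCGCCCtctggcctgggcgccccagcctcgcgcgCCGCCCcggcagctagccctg
Edn1, chr13:42301226-42301525, plus strand: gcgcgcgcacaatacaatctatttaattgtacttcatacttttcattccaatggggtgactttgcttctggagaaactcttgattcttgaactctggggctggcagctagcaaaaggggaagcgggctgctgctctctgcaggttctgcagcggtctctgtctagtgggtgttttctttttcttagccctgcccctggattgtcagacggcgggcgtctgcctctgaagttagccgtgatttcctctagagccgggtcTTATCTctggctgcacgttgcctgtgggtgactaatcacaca
The upstream window of Ace held 1 TATAAA match and 4 GGGCGG matches, while the downstream window held none of the 5 motifs. The Ece1 window shown, 1 of 4, held 2 GGGCGG matches and the Edn1 window 1 AGATAA match. Of the Ece1 windows not shown, start 2 held 2 GGGCGG matches, start 3 none of the 5 motifs and start 4 held 1 GGGCGG match. Among all 32851 windows of that length, 13.6% held TATAAA, 35.7% GGGCGG, 7.81% TGANTCA, 11.2% AGATAA and 14.9% CCGGAA. GC content was 69.7% and 59.0% at the upstream and downstream Ace starts and 51.3% at the Edn1 start, against a median of 52.7% over all windows. At Ece1 starts 1 to 4, numbered from upstream, it was 69.3%, 68.3%, 65.3% and 53.0%. A match describes these letters only. The arrays do not measure which start a transcript used.

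Of the 8 measured genes, 5 were above background, namely Ace, Agtr1a, Edn1, Ednrb and Ece1, and 3 were not, namely Agt, Agtr2 and Edn3. The share of 62.5% lies near the 57.8% of all 18193 named genes that were above background, so it is no result about these genes as a group. Levels are log2(intensity + 16), a scale that compresses differences among dim probe sets. For a gene with several probe sets, the level given is that of the one with the highest mean. Background was set on each array from 85 probe sets for smell, taste and pheromone receptors, as the 95th percentile of their levels, and this threshold lay at 7.25, 6.99, 7.57 and 7.36 in replicates 1 to 4. The call was limma's moderated test of the mean distance from these thresholds, one-sided, with a Benjamini-Hochberg adjusted p under 0.05 over all probe sets. The median over the 8 genes of that mean distance was 1.46 log2 units, against 1.88 over all named genes. In each of the 4 samples 6 of the 8 genes lay over the threshold, against 66.9%, 68.5%, 67.4% and 65.9% of all genes. Brightness differs between probes for reasons other than transcript number, so the genes are not ranked against one another.

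**Figure D1:**
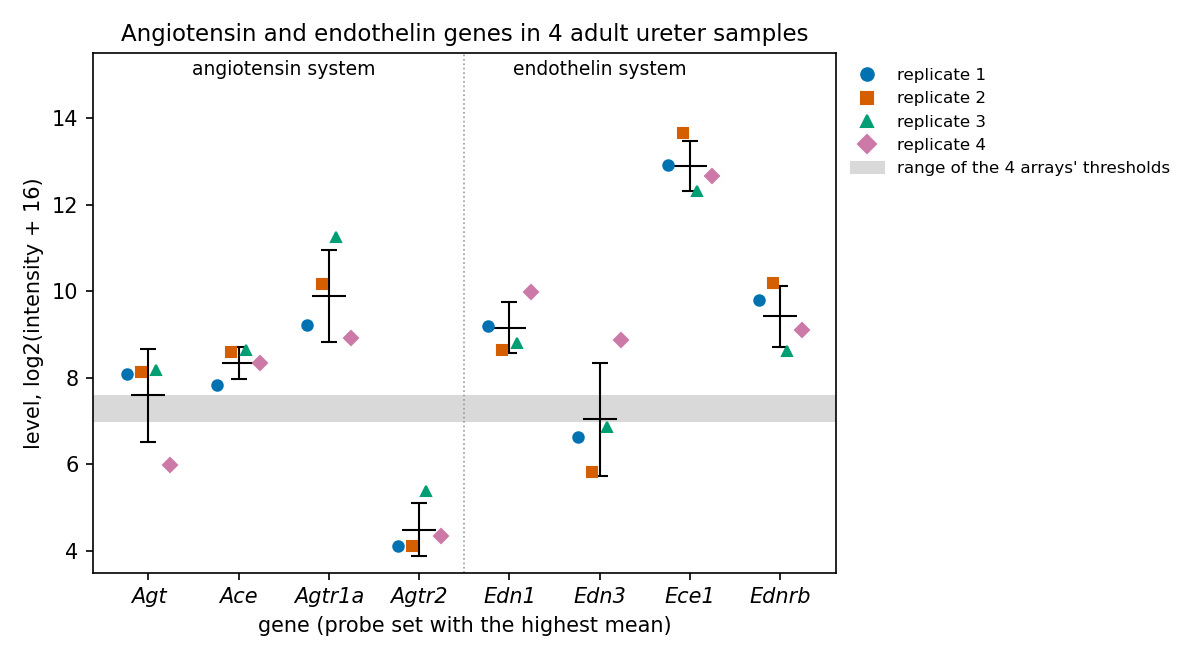
Level of the 8 measured genes, log2(intensity + 16), in each of 4 ureter samples (coloured symbols), with the mean and SD (black) and the range of the 4 arrays' background thresholds (grey band, 6.99 to 7.57). Ece1 lies far over the band in every sample, Agtr2 lies under it in every sample, and in Agt and in Edn3 replicate 4 lies on the other side of the band from the other 3 samples.

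Agt encodes angiotensinogen, the precursor from which all angiotensin peptides are cut and which liver makes in bulk. Its level was 8.09, 8.13 and 8.17 in replicates 1 to 3 and 5.98 in replicate 4. As deposited, the first 3 samples thus lay within 0.1 log2 units of one another and over their thresholds, while replicate 4 lay under its own. After quantile normalization the levels were 8.24, 8.42, 7.81 and 5.98, so replicates 1 to 3 lay less close together. The mean of 7.59 ± 1.08 (SD, n = 4) was not above background (mean distance 0.30, limma adjusted p = 0.556). Without replicate 4 the mean distance was 0.86 and the adjusted p 0.0603. Of 6 measured liver markers all 6 lay over the threshold in replicates 1 and 3, and 1 did in each of replicates 2 and 4. Their summed intensity was 46153, 402, 12237 and 485 in replicates 1 to 4. The level of albumin (Alb) was 14.58, 6.91, 11.84 and 7.88. The part of liver RNA in the Agt values was not tested.

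Ace encodes the enzyme that makes angiotensin II, known above all from the surface of vessel lining and of some epithelia. By its brighter probe set it had 7.83, 8.59, 8.64 and 8.33 in replicates 1 to 4, over the threshold in every sample. The mean of 8.35 ± 0.37 (SD, n = 4) was 1.06 log2 units over the threshold (limma adjusted p = 0.0105), a small distance that was not above background with thresholds at the 99th percentile (0.54, adjusted p = 0.172). The other Ace probe set had 8.18, 8.85, 6.94 and 8.19 and was not above background (mean distance 0.75, limma adjusted p = 0.135). In both, replicate 2 was above replicates 1 and 4. They parted in replicate 3, which was the highest sample by the brighter probe set as deposited and the lowest by the other. Male germ cells have an Ace form of their own. The germ cell markers Prm1, Prm2, Tnp1, Tnp2, Ddx4 and Sycp3 gave 0 of 6 genes above background. At most 1 was over the threshold in any sample, Prm1 in replicates 1 and 4 (8.21 and 8.15) and Sycp3 in replicate 3 (7.78). The part of germ cell RNA in the Ace values was not tested.

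Agtr1a encodes the type 1 angiotensin receptor, through which angiotensin II contracts vessels and other smooth muscle. It had 9.22, 10.16, 11.26 and 8.91 in replicates 1 to 4. All 4 samples lay over the threshold, replicate 3 highest and replicate 4 lowest, a 5.11-fold range on the log2(intensity + 16) scale. The mean of 9.89 ± 1.06 (SD, n = 4) was 2.60 ± 0.39 log2 units (SE) over the threshold (limma adjusted p = 0.000285). The SD was 0.65 without replicate 3, and the spread did not pass the F test on limma's prior variance (adjusted p = 0.919). The only probe set of its copy gene Agtr1b, which codes for a closely similar receptor, was not above background (4.95 ± 0.28), and whether the probes of either gene also match the other was not examined. Skeletal muscle markers stood out in the same sample, with all 7 over the threshold in replicate 3, against 0, 1 and 2 in the others, with a summed intensity of 200548 there and 416 to 487 elsewhere. Adipocyte markers had a summed intensity of 31464 there and 186 to 367 elsewhere, nearly all of it from Fabp4, and lacrimal and salivary gland markers 76043 there and 2139 to 16794 elsewhere, mostly from Pip. The urothelial markers Upk3a and Krt20 were over the threshold in replicate 3 alone. The male tract markers Pbsn and Spink1 were at 15.41 and 14.97 there, against 8.80 to 9.42 and 4.63 to 8.76 elsewhere. The contractile smooth muscle markers were highest in replicate 2, and their median level was 9.36, 11.16, 10.76 and 10.34. The part of any of these in the Agtr1a values was not tested, and in whole tissue fewer cells of a type and less RNA per cell cannot be told apart.

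Agtr2 encodes the type 2 angiotensin receptor. Its levels were 4.11, 4.12, 5.38 and 4.34, under the threshold in every sample, with a mean of 4.49 ± 0.61 (SD, n = 4). The deposited intensities were 1.21, 1.39, 25.8 and 4.21, so the higher log2 level of replicate 3 is a difference among values at background. It was the 1 gene of the 8 under the threshold on all 4 arrays, where 23.4% of all named genes lay, while 5 were over it on all 4, as were 58.4% of all genes. The thresholds bound what could be seen, and transcript below them was not detectable on these arrays.

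Edn1 encodes endothelin-1, a strong constrictor of vessels that vessel lining and epithelia release. It had 9.19, 8.63, 8.81 and 9.97 in replicates 1 to 4, over the threshold in every sample. The mean of 9.15 ± 0.59 (SD, n = 4) was 1.86 ± 0.30 log2 units (SE) over the threshold (limma adjusted p = 0.000503). Replicate 4 was highest and replicate 2 lowest as deposited, while after quantile normalization replicate 3 was lowest (8.53 against 8.87 in replicate 2).

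Edn3 encodes endothelin-3, known as the signal that pigment cells and gut neurons need in development. By its probe set with the highest mean it had 6.62, 5.82, 6.86 and 8.87, so only replicate 4 lay over the threshold. The mean of 7.04 ± 1.30 (SD, n = 4) was not above background (mean distance -0.25, limma adjusted p = 1). The 3 other Edn3 probe sets lay under the threshold in every sample, with means of 6.40, 6.26 and 6.26, and in replicate 4 they had 6.97, 6.80 and 7.20. The high value of replicate 4 therefore rests on 1 of 4 probe sets. Edn2, the remaining endothelin gene, had 9.33, 8.34, 7.49 and 9.19 and was above background (mean 8.59 ± 0.85, limma adjusted p = 0.0157), with replicate 3 under its threshold.

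Ece1 encodes the enzyme that releases active endothelin. It had 12.92, 13.66, 12.32 and 12.67 in replicates 1 to 4, and the deposited intensities behind them were 7749, 12934, 5102 and 6523. The mean of 12.89 ± 0.57 (SD, n = 4) was 5.60 ± 0.31 log2 units (SE) over the threshold (limma adjusted p = 5.45e-07). It was the only one of the 8 above background with every threshold tried. Its other probe sets had means of 5.97 and 5.37 and lay under the threshold in every sample. A related gene, Ece2, was above background at 8.54 ± 0.31 (limma adjusted p = 0.00255).

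Ednrb encodes the endothelin B receptor. It had 9.79, 10.18, 8.61 and 9.11 in replicates 1 to 4, with replicate 2 highest and replicate 3 lowest, a 2.98-fold range on the log2(intensity + 16) scale. The mean of 9.42 ± 0.70 (SD, n = 4) was 2.13 ± 0.38 log2 units (SE) over the threshold (limma adjusted p = 0.000814). The other Ednrb probe sets had means of 7.30 ± 0.10 and 7.14 ± 0.28 and were not above background.

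**Figure D2:**
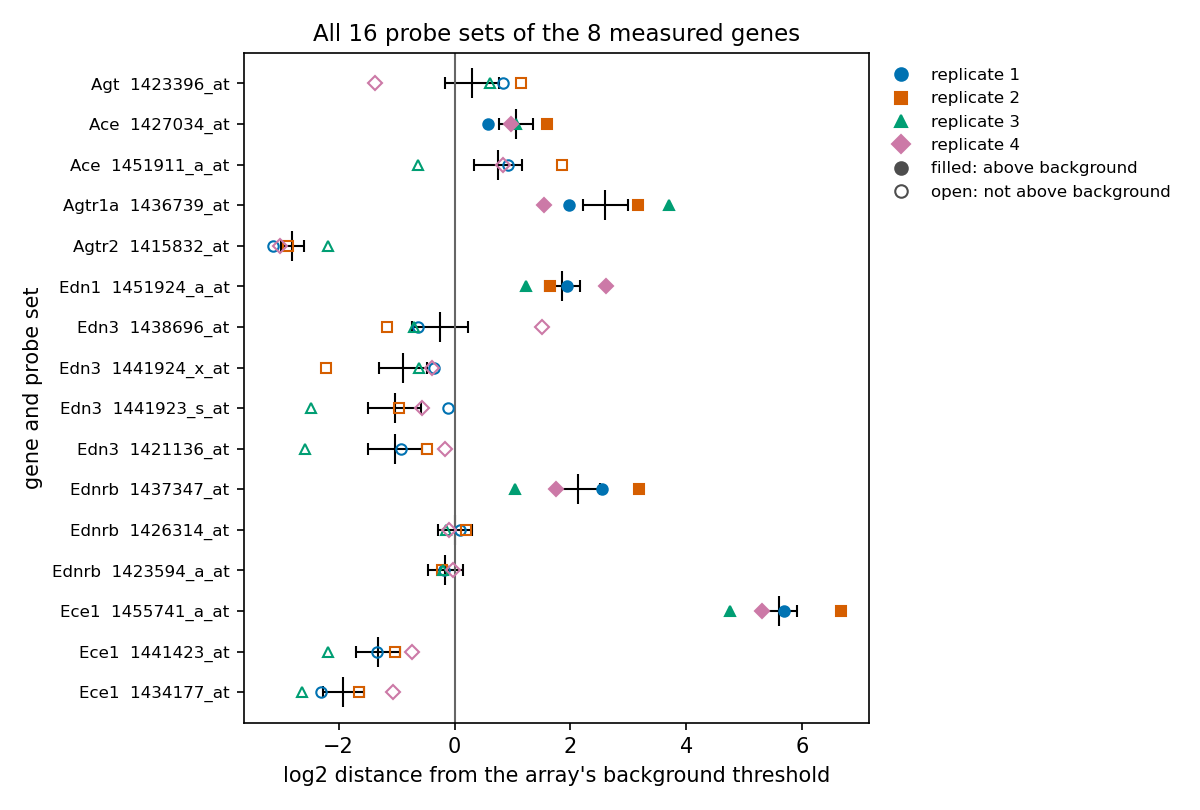
Distance of each of the 16 probe sets from its array's background threshold (log2 units, 0 is the threshold) in 4 ureter samples, with the mean and limma's SE in black. In 5 probe sets, 1 for each gene above background, all samples lie to the right of 0 and the mean passed the test (filled symbols); the other 11 (open symbols) did not pass, among them every probe set of Agt, Agtr2 and Edn3.

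Several of these genes had probe sets that disagreed. Ace, Edn3, Ednrb and Ece1 had 2, 4, 3 and 3 probe sets, and in Ace, Ednrb and Ece1 exactly 1 of them was above background. Over all 16 probe sets 5 were above background, against 40.9% of all probe sets tested. Transcript ends were unequally read: the 3' to 5' signal ratio of the Gapdh control was 18.77 to 36.94 and that of the Actb control 4.426 to 19.8, with replicate 4 lowest and replicate 2 highest in both. The positions of these probe sets along their transcripts were not used here, and the part of RNA quality in their differences was not tested.

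The 5 genes above background did not vary together over the samples. Ece1 and Ednrb were highest in replicate 2, by 1.02 and 1.01 log2 units over the mean of the other 3 samples, and lowest in replicate 3, by -0.76 and -1.09. Agtr1a went the other way in replicate 3, where it was 1.83 above the others, and Edn1 was highest in replicate 4, by 1.09. Ace stayed within 0.81 log2 units over the 4 samples. So 2 of the 5 genes were highest in replicate 2, against 25.3% of all genes above background, and 2 of 5 were lowest in replicate 3, against 34.4%. Quantile normalization left the highest and lowest samples of Agtr1a, Ednrb and Ece1 in place and made replicate 2 the highest for Ace (8.83 against 8.34 in replicate 3).

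None of these genes passed a test of the spread between samples. The median SD of the 5 genes was 0.59, against 0.41 over all genes above background. The test set each variance over 4 samples against limma's prior variance for probe sets of that level. Of the 5 member probe sets tested 0 passed, with adjusted p-values of 0.919 for Agtr1a and 0.996 for Ace, Edn1, Ednrb and Ece1 (F test on limma's prior variance, Benjamini-Hochberg adjusted), and 0 had an unadjusted p under 0.05. Over all 18421 probe sets above background 0 passed as well (0% called), and 1155 (6.27%) had an unadjusted p under 0.05. Even the gland marker Pip, with a 1850-fold range, had an adjusted p of 0.0654 in this F test on limma's prior variance. A test that no probe set passed cannot tell usual from unusual spread with 4 samples. The differences described here are not shown to exceed the spread that probe sets of the same brightness share, nor shown to lie within it.

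Cell type markers varied between the samples beside these genes. Markers of smooth muscle and urothelium were present: 8 of 8 contractile smooth muscle genes and 6 of 8 urothelial genes were above background. Whether their signal came from the ureter alone was not tested. Of 8 endothelial markers 7 were above background, and their summed intensity was 23107, 44123, 7189 and 34533 in replicates 1 to 4. Against the mean of the other samples the endothelial median was 1.22 log2 units in replicate 2 and -1.95 in replicate 3, the samples in which Ece1 and Ednrb were highest and lowest. In replicate 4 the endothelial median was 0.86 above the others while Ece1 and Ednrb were at -0.29 and -0.42. Fibroblast markers were also low in replicate 3, with a median of -2.15 and a summed intensity of 20886 against 84909 to 121196. Macrophage markers had medians of 0.38, 0.57, -0.62 and -0.30 in replicates 1 to 4, also highest in replicate 2 and lowest in replicate 3. The part of endothelial, fibroblast or macrophage RNA in the Ece1 and Ednrb values was not tested. Schwann cells and pigment cells carry Ednrb as well. Of 4 measured Schwann cell markers 1 was above background, namely Mbp. The summed intensity of the 4 was 5963, 6394, 4812 and 9472 in replicates 1 to 4, mostly from Mbp. Of 5 melanocyte markers 1 was above background, with a sum of 459, 310, 4048 and 1156. The part of either cell type in the Ednrb values was not tested. None of 7 kidney nephron markers was above background, and 0, 1, 1 and 1 lay over the threshold in replicates 1 to 4, each time Aqp2. The markers of seminal vesicle and prostate were 6 of 6 over the threshold in replicates 1 and 2, 3 of 6 in replicate 3 and 1 of 6 in replicate 4. The summed intensity of these male tract markers was 7127, 66575, 76110 and 661 in replicates 1 to 4, in replicate 3 nearly all from Pbsn and Spink1. Marker intensities were above 0 on every array, since no probe set was listed at 0.

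**Figure D3:**
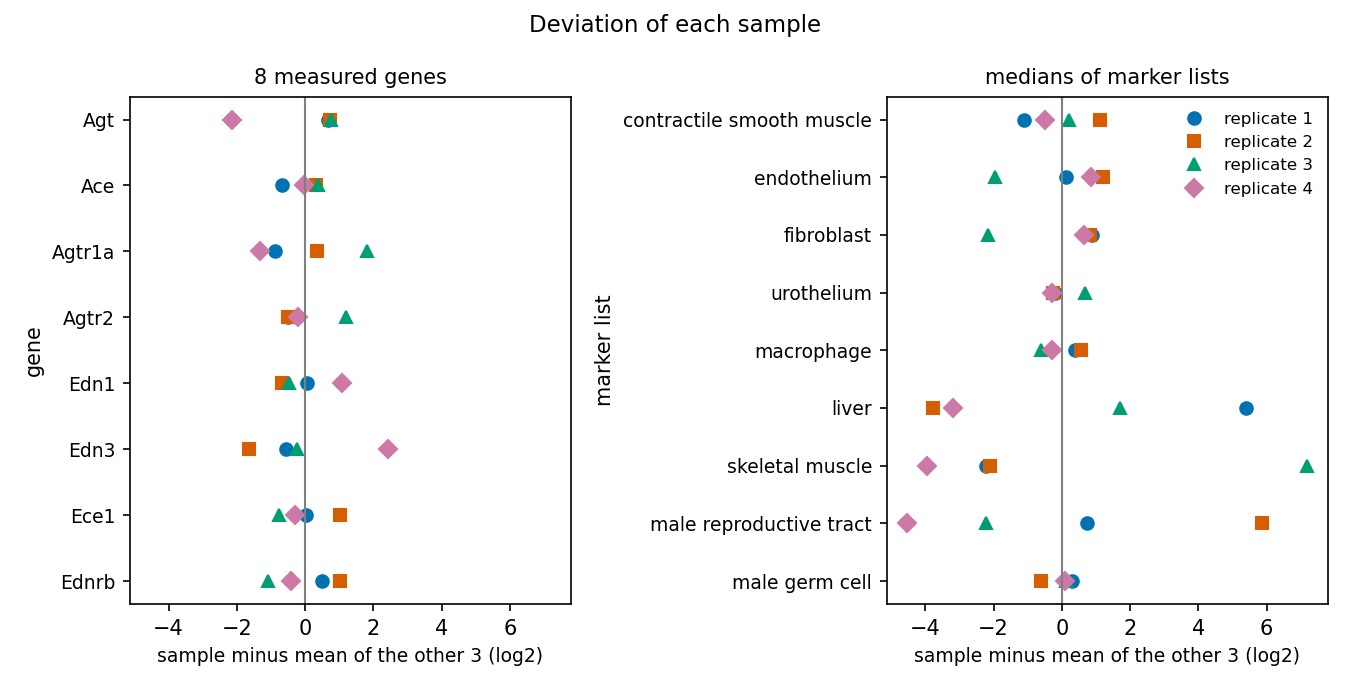
Each sample's level minus the mean of the other 3 samples (log2 units) for the 8 measured genes (left) and, as medians, for 9 lists of marker genes (right), with 1 symbol per sample. Ece1, Ednrb and the endothelial and macrophage medians share replicate 2 as the highest and replicate 3 as the lowest sample. Agtr1a is highest in replicate 3, as are the skeletal muscle and urothelial medians.

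Of 17 measured enzymes that process or degrade the 2 families of peptides, 11 were above background (64.7%, near the 57.8% of all named genes) and 6 were not. Mme, the gene of neprilysin, which degrades both angiotensins and endothelins, had 12.48, 13.09, 13.47 and 13.89 (mean 13.23 ± 0.60, limma adjusted p = 1.09e-07). Enpep, the aminopeptidase that converts angiotensin II to angiotensin III, was above background at 10.81 ± 1.86 (limma adjusted p = 0.00141). It had 10.12, 13.04, 8.67 and 11.42 in replicates 1 to 4, a 20.7-fold range, and like Ece1 and Ednrb it was highest in replicate 2 and lowest in replicate 3. Its spread had an unadjusted p of 0.00543 and an adjusted p of 0.58 in the F test on limma's prior variance. The 6 genes that did not pass were Anpep (5.12 ± 0.84), an aminopeptidase, the mast cell proteases Cma1 (7.69 ± 0.46) and Cpa3 (5.98 ± 1.41), the neutrophil and mast cell protease Ctsg (6.52 ± 0.29), and Ecel1 (7.35 ± 0.54) and Kel (6.28 ± 1.45), relatives of endothelin-converting enzyme. Cma1 encodes chymase, which can make angiotensin II without Ace, and it lay over the threshold in 3 of 4 samples. Lnpep had no probe set of its symbol alone and is not analysed here.

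Of 12 further ligands, receptors and receptor partners 7 were above background (58.3%, against 57.8% of all named genes). Agtrap, which binds the type 1 angiotensin receptor and promotes its uptake, was above background at 10.12 ± 0.21 (limma adjusted p = 4.51e-06). Mas1, the receptor for angiotensin 1-7, was not above background at 5.06 ± 0.48, and neither was Agtr1b. Atp6ap2, the prorenin receptor and a proton pump subunit, named after its values were seen, had 15.57 ± 0.22 (limma adjusted p = 1.32e-08). The bradykinin receptor genes Bdkrb1 (6.60 ± 0.41) and Bdkrb2 (7.03 ± 0.88) and the kininogen gene Kng1 did not pass. Kng1, a gene of liver, was at 9.40 in replicate 1 and between 5.62 and 6.90 elsewhere. Nr3c2, the receptor for the steroid aldosterone, which angiotensin II releases from the adrenal gland, was above background at 11.50 ± 0.41 and was also named after its values were seen (limma adjusted p = 1.41e-06). Ren2 had no probe set of its symbol alone.

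The G protein signalling genes that both receptor families use were above background in 20 of 22 cases (90.9%, against 57.8% of all named genes, a difference that was not tested). Gnaq and Gna11, the G protein subunits that link these receptors to phospholipase C, had 13.14 ± 0.28 and 12.82 ± 0.16 (limma adjusted p-values 7.57e-08 and 4.25e-08). Gna12 had 10.87 ± 0.49 (limma adjusted p = 6.95e-06). The 2 that did not pass were Plcb2 (7.08 ± 0.76), a phospholipase of blood cells, and Rgs4 (7.20 ± 0.92), which shuts off G proteins. Rgs5, which shuts off the same G proteins in pericytes and vascular muscle and was named after its values were seen, was above background at 12.76 ± 1.65 (limma adjusted p = 1.61e-05). It had 11.73, 12.88, 15.04 and 11.38 in replicates 1 to 4, highest in replicate 3 and lowest in replicate 4. Only 1 of its 4 probe sets was above background. Its spread had an unadjusted p of 0.00319 and an adjusted p of 0.574 in the F test on limma's prior variance. Adrbk1 and Rock2 had no probe set of their symbol alone. Over the 3 lists 38 of 51 genes were above background (74.5%, against 57.8% of all named genes), with a median distance of 2.83 log2 units against 1.88, and the difference was not tested.

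**Figure D4:**
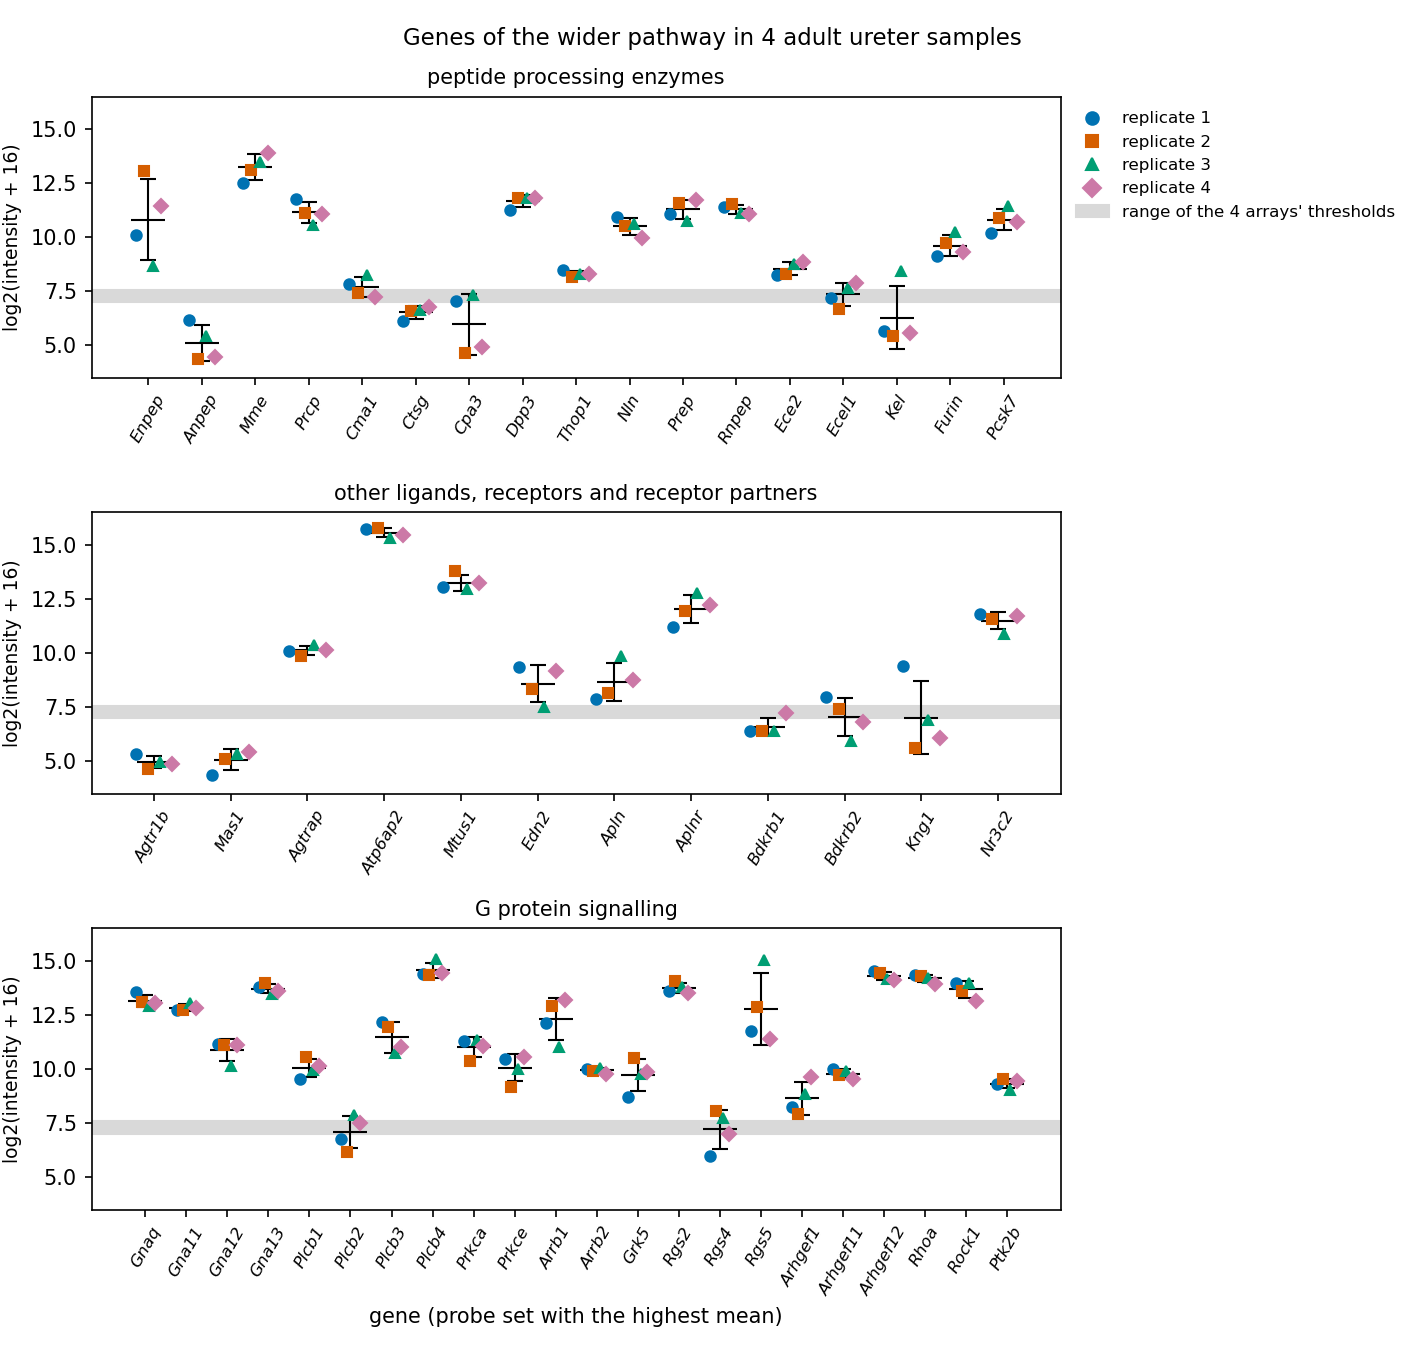
Level, log2(intensity + 16), of 51 genes of the wider pathway in 3 lists, in each of 4 ureter samples (coloured symbols), with the mean and SD (black) and the range of the arrays' thresholds (grey band). Nearly all of the G protein genes lie over the band, while Agtr1b and Mas1 lie under it in every sample, and Enpep and Rgs5 are spread widest among the genes over the band.

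The calls depended on the background chosen. With each array's threshold at the median plus 3 median absolute deviations of the receptor probe sets, 8.97 to 9.97, only Ece1 of the 8 genes and 25 of the 51 wider pathway genes were above background. The mean distance was then 0.50 for Agtr1a (limma adjusted p = 0.437), 0.04 for Ednrb, -0.23 for Edn1 and -1.04 for Ace.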

How the data were processed

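Ureter RNA of 4 samples was measured on 1 array each. The samples were unpooled, per the labels' protocols, and biotin-labelled RNA came from 2 rounds of amplification. The deposited value of a probe set is an intensity on a linear scale. The submitters' processing notes name GCOS, with a version not given in the sources used here. Leaving out the top and bottom 2% of values, the mean was 1500 on each array, so the authors had scaled the intensities, and they were used as deposited. Scanner files and detection calls were not used here. Precision is limited by the number of arrays.

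Of 45101 probe sets 64 controls were left out. The platform's annotation table gave 34945 of the rest 1 symbol, 932 several and 9160 none, and names came only from probe sets with 1 symbol. Gene identifiers of 34741 of these were in the RefSeq table of GRCm38.p6, which changed 0 symbols. Promoter windows came from RefSeq for 9 of the 10 genes. Levels were log2(intensity + 16). Background was tested with limma 3.58.1 (lmFit, eBayes with trend and robust) in R 4.3.3, and 0 of the 85 receptor probe sets behind the thresholds were called. A gene with any probe set above background was called. The spread test was an F test with 3 and 5.24 degrees of freedom on limma's prior variance, over probe sets above background. Both tests were checked on simulated data. The genes, lists and tests were chosen with earlier results of these data known. The rule named all 10 genes, the first 3 measured genes of each wider list and the genes outside the majority of their list. Edn2, Ece2, Atp6ap2, Nr3c2 and Rgs5 were named outside this rule, as were some of the genes flagged for a closer look. Alternatives were pseudocounts of 1 and 64, quantile normalization, thresholds at the 99th percentile or from the median, calls by value alone, other rules for genes with several probe sets, no filter or no trend in the spread test, and leaving out each sample. Quantile normalization moved the median of all probe sets by 0.11, 0.20, -0.25 and -0.05 in replicates 1 to 4. No column belonged to another series.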

Additional observations from a re-analysis of the deposited data

Results flagged for a closer look

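A sample was set apart where its gap to the nearest other sample, divided by the range of the 4, was above Dixon's 95% critical value. This held for 2 of the 16 probe sets of the angiotensin and endothelin genes and for 5 of the 51 wider pathway genes. Among all named genes 6.85% had such a sample, and among all probe sets 7.15%, while chance gives about 5% of groups with normal errors.

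Agt was set apart in replicate 4, at 5.98 against 8.09 to 8.17 (ratio 0.96). This holds for the values as deposited. Quantile normalization gave 5.98 against 7.81 to 8.42, and the ratio was not taken on those values. An Edn3 probe set that can match several transcripts was set apart in replicate 2, at 4.78 against 6.89 to 6.97 (ratio 0.961), all values under the threshold. Kel in replicate 3 had 8.45 against 5.42 to 5.68 (ratio 0.913), and Bdkrb1 in replicate 4 had 7.21 against 6.39 to 6.41 (ratio 0.967), and neither gene was above background. Gna12 was low in replicate 3, at 10.14 against 11.09 to 11.13 (ratio 0.964), Plcb4 was high there, at 15.06 against 14.34 to 14.42 (ratio 0.893), and Dpp3 was low in replicate 1, at 11.27 against 11.79 to 11.82 (ratio 0.935).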

How the results depend on the processing

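Ace, Agtr1a, Edn1, Ednrb and Ece1 were the 5 genes above background with both other pseudocounts, with quantile normalization, with the brightest probe set alone, with the mean of all probe sets, without probe sets ending in _s_at or _x_at, over the threshold on all 4 arrays, and without any 1 replicate (5 to 5). With thresholds at the 99th percentile Ace was lost (4 genes), by a mean distance over 0 without a test Agt was added (6 genes), and with the threshold set from the median and 3 median absolute deviations Ece1 alone was left (1 gene). The wider pathway count of 38 was 25 at that last threshold, 30 with the mean of all probe sets, and 37 to 38 without 1 replicate. The sign of the mean distance changed for Ace (-1.04), Edn1 (-0.23) and Agt (-1.79) with the threshold from the median, for Agt also with the 99th percentile (-0.22), and for Edn3 without replicate 2 (0.06, within -0.83 to 0.06 over the samples left out). Both of these thresholds are higher than the one used, which lowers every distance. The count of genes passing the spread test was 0 in all alternatives run. Leaving out the most distant of 4 values lowers an SD in nearly every case, so such a fall alone does not show dependence on 1 sample. The largest falls were from 1.08 to 0.04 for Agt, 0.59 to 0.29 for Edn1 and 1.30 to 0.54 for Edn3 without replicate 4. Without replicate 3 they were from 1.06 to 0.65 for Agtr1a, 0.61 to 0.13 for Agtr2 and 0.70 to 0.54 for Ednrb. Ece1 fell from 0.57 to 0.30 without replicate 2, and Ace from 0.37 to 0.17 without replicate 1. With a pseudocount of 1 that of Agtr2 was 1.67. Signal close to background limits what can be said of Ace, Agt and Edn3. No paired analysis was possible because all samples belong to 1 group.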
